A study of Homo sapiens with 8 samples.

Results

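The genes described here are 10 members of the BCL2 family, the proteins that decide whether a cell's mitochondria release the factors that start apoptosis. They were picked out of the table by symbol, from a list drawn up with earlier results of these data known, and comprise the survival genes BCL2, BCL2L1, MCL1, BCL2L2 and BCL2A1, the pore-forming effectors BAX and BAK1, and the BH3-only death genes BCL2L11 (which encodes BIM), BBC3 (PUMA) and PMAIP1 (NOXA). All 10 were found among the 25435 symbols of the expression table, and all 10 passed the filter on low counts that left 14898 genes for testing. They were measured by mRNA sequencing in 8 libraries of SET-2, a human line established from an essential thrombocythemia that had turned into a megakaryoblastic leukemia and whose growth is driven by mutant JAK2. In 4 libraries the cells carried a guide RNA against ZRSR2, a protein of the minor spliceosome, and in 4 a non-targeting (NT) guide, both delivered with a PLKO5 GFP virus. For each genotype, guide 1 and guide 2 were both run in experiment 1 and again in experiment 2, which gave 2 libraries for every group of genotype and experiment. Numbering is the same for knockout (KO) and NT: in experiment 1 guide 1 is called replicate 1 and guide 2 replicate 2, while in experiment 2 guide 1 is called replicate 3 and guide 2 replicate 4. RNA was collected on day 20 or day 25 after transduction, depending on the biological replicate, and experiment 1 was assumed to be the one of day 20. The KO libraries come from guide-carrying populations and are not described as clones, all 8 libraries share a single cell line, and a nuclease is not named in the sources used here. The labels do not say that the libraries of an experiment came from separate cultures, so p-values measure the spread between these samples, which may in part be technical.

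Survival members of the family hold BAX and BAK1 in check at the outer mitochondrial membrane. BH3-only members are produced or released under stress, bind the survival members in their groove and free or activate the effectors, which then open the membrane, release cytochrome c and switch on caspases. Megakaryocytes and platelets are known to depend on BCL-XL, the product of BCL2L1, and to a lesser extent on MCL1, and the signal from JAK2 through STAT5 is a known inducer of BCL2L1 in cells of this lineage.

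Depth and identity were checked once for all libraries. Totals ran from 31106042 to 71521173 expected counts, the deepest being NT replicate 3. Levels are given as CPM, counts per 1000000 counts of a library scaled by TMM. ZRSR2 itself stood at 24.8 ± 4.99 CPM in the KO libraries (SD, n = 4) and at 39.5 ± 1.34 CPM in the NT libraries (SD, n = 4), and no KO library reached the lowest NT library. The fitted log2 difference was −0.67 (SE 0.15). Its adjusted p from edgeR's quasi-likelihood test was 1, or 0.275 when the experiment was a block. Of 11 megakaryoblastic marker genes, 10 averaged at least 1 CPM, and their summed level was 3469.9 to 3710.3 CPM in experiment 1 and 3601.6 to 4400.7 CPM in experiment 2. None of 3 T cell markers averaged 1 CPM. Among 3 B cell markers MS4A1 had no count, while the sum, nearly all of it CD79A, was 10.3 to 11.5 CPM in experiment 1 and 32.5 to 51.2 CPM in experiment 2. The sum of 3 monocyte markers, nearly all of it LYZ, overlapped between experiments, at 216.9 to 233 CPM and 206.7 to 267.3 CPM. CD14 averaged 0.651 CPM and CSF1R 0.119 CPM over the 8 libraries. The sum of 3 epithelial markers also overlapped, at 19.2 to 22.3 CPM and 19.4 to 26.1 CPM, but EPCAM was at 3.59 to 6.41 CPM in experiment 1 and 11.8 to 21.1 CPM in experiment 2, and KRT18 at 10.7 to 14.9 CPM and then 3.26 to 6.12 CPM. The sum of 3 fibroblast markers was 1.77 to 2.84 CPM in experiment 1 and 3.36 to 4.46 CPM in experiment 2, through COL1A2 with means of 1.23 and 3.36 CPM, while COL1A1 had means of 0.319 and 0.259 CPM and DCN of 0.715 and 0.418 CPM. The part of these marker shifts in the differences between experiments below was not tested, and in bulk RNA fewer cells of a type and less RNA per cell cannot be told apart.

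The levels of the members can be compared with each other only per length. Divided by the length of the principal transcript in GENCODE 29, BCL2L1 was the highest of the 10, at 118.2 to 161 CPM per kb over the 8 libraries with a median of 127.6. BAX followed with a median of 88.2 CPM per kb (68.1 to 90.2) and MCL1 with 56.8 CPM per kb (46.4 to 64.2). The ranges of these 3 genes did not overlap. BCL2L11 had a median of 30.7 CPM per kb (24.1 to 43.2), BAK1 of 21.3 (15.9 to 22.4) and PMAIP1 of 13.6 (11.1 to 16.8), and the ranges of BAK1 and PMAIP1 overlapped. BCL2L2 and BBC3 could not be ordered, with medians of 9.58 CPM per kb (7.96 to 10.1) and 9.28 CPM per kb (6.15 to 13.6), and the upper end of BBC3 reached into the range of PMAIP1. BCL2 and BCL2A1 were the lowest, with medians of 3.16 CPM per kb (2.37 to 5.46) and 1.37 CPM per kb (0.862 to 2.1). BCL2A1, a survival gene best known from lymphoid and myeloid cells, rested on 41 to 89 counts per library. The order depends on the length used. As an alternative length, the exons of all coding transcripts in GENCODE's basic set were joined into a union. With this union, BAX stood at 38.2 to 50.6 CPM per kb and overlapped MCL1 at 44.7 to 61.8. For BCL2L11, 14 of 25 annotated transcripts entered the union, and the gene stood at 6.02 to 10.8 CPM per kb. Its median of 7.68 was below the 12.6 of PMAIP1. Counts of several members may also include reads of neighbours, since GENCODE 29 places other genes over BCL2L1, MCL1, BCL2L11, BAK1, BCL2L2, BBC3 and BCL2 and the use of strand is not given in the sources used here. BAK1 also has 2 annotated pseudogenes, and the read-through gene BCL2L2-PABPN1 had 0 counts in all 8 libraries.

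**Figure D1:**
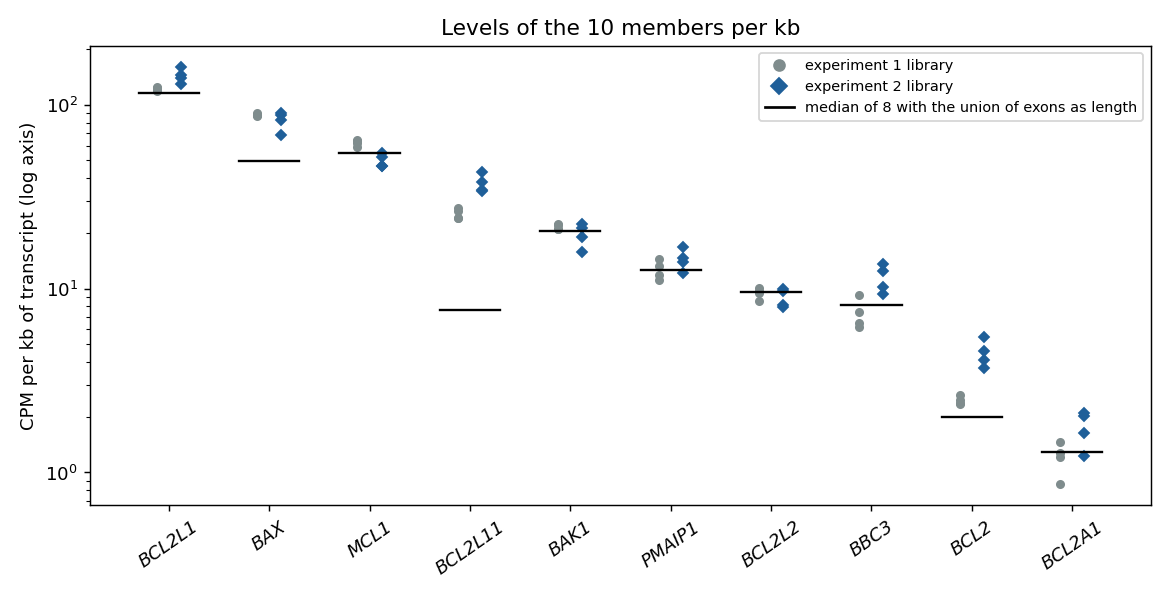
Level of each member in CPM per kb of its principal transcript (log axis), for the 4 libraries of experiment 1 (grey circles) and the 4 of experiment 2 (blue diamonds); the black line is the median of all 8 with the union of exons as the length. BCL2L1 is highest at 118.2 to 161 CPM per kb, BCL2A1 lowest at 0.862 to 2.1, and the line of BCL2L11 lies far under its points.

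Within the survival genes, BCL2L1 supplied most of the transcript in every library. Of the summed level per kb of the 5 survival genes, it held 61% to 63.7% in experiment 1 and 66.5% to 72.8% in experiment 2. MCL1, whose short-lived protein must be made continuously, held 29.7% to 32.2% in experiment 1 and 21% to 26.1% in experiment 2. BCL2, the founding member of the family, held 1.2% to 1.33% and then 1.75% to 2.56%. BCL2L2, which encodes BCL-W, held 3.6% to 5.11% and BCL2A1 0.437% to 1.05% over both experiments. With exon unions as lengths the ranges of BCL2L1 were 59.9% to 62.6% and 65.6% to 72.2%, and those of MCL1 30.8% to 33.4% and 21.9% to 27.1%, again without overlap.

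Between the experiments, single members moved in both directions. BCL2, BCL2L11, BBC3 and BCL2L1 rose from experiment 1 to experiment 2, by 1.8, 1.46, 1.56 and 1.18 times, and MCL1 fell to 0.805 times its level. BAX, BAK1, BCL2L2, PMAIP1 and BCL2A1 did not pass the test. Thus 5 of 10 members were called at an adjusted p of 0.05, 4 higher and 1 lower, and the 4 libraries of each experiment did not overlap for the same 5. That share is near the background, since 58.2% of the 14898 tested genes were called, 29.6% higher and 28.6% lower, and 56% did not overlap. The median log2 difference of the members was 0.22, against 0.003 over all tested genes, and their median absolute log2 difference was 0.28, against 0.37 over all. Experiment, collection day and any other difference between the 2 runs of the study cannot be told apart. This comparison was fitted over the 4 groups of genotype and experiment, with equal weight for both genotypes.

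The promoters of the 4 members that rose are shown because these genes moved in the same direction. Each is the RefSeq window on GRCh38.p14 from 250 bases before to 50 bases after an annotated start, 300 bases in all, printed 5′ to 3′ on the strand of the gene. BCL2L1 has 2 such windows. Capitals mark matches on either strand to any of 6 motifs. The forkhead motif searched was GTAAACA, that of STAT factors was TTCNNNGAA and that of GATA factors was AGATAA. The E-box was searched as CACGTG, the box named for its letters as CCAAT, and the GC box as GGGCGG. No printed match overlaps another.
BCL2, chr18:63319720-63320019, minus strand: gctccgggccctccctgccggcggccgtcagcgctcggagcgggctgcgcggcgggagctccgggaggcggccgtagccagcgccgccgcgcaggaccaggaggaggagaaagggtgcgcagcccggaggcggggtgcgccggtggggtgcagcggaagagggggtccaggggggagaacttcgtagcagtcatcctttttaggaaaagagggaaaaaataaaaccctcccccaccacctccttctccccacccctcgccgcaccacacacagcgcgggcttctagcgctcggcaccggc
BCL2L1, chr20:31723914-31724213, minus strand: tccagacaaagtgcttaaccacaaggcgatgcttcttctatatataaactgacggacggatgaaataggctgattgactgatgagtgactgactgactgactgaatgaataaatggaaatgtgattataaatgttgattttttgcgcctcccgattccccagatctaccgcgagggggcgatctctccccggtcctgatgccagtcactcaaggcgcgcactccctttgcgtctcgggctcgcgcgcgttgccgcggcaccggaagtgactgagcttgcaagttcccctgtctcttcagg
BCL2L1, chr20:31722819-31723118, minus strand: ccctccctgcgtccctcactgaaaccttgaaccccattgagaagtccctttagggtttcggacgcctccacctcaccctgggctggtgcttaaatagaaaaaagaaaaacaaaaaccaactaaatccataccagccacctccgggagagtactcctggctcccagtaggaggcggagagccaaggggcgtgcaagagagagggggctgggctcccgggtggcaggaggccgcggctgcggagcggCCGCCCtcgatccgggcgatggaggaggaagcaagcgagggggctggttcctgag
BCL2L11, chr2:111120664-111120963, plus strand: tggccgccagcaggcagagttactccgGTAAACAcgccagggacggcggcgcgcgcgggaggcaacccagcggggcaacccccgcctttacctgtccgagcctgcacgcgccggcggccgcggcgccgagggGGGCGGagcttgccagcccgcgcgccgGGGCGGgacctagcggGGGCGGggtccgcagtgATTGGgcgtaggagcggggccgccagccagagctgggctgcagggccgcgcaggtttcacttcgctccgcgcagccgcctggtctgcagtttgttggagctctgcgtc
BBC3, chr19:47232618-47232917, minus strand: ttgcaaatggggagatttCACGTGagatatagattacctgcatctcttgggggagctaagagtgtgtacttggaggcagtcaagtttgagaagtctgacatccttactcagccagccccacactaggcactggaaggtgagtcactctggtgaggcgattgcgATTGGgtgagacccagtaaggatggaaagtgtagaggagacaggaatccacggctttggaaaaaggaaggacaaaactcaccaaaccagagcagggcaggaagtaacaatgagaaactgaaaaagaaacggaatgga

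The BCL2L11 window held 5 matches, among them the forkhead motif at bases 28 to 34, counted from its 5′ end, and 3 GC boxes. In the windows of BAX, BAK1, PMAIP1 and BCL2A1, members not called between the experiments, there were 8, 4, 4 and 1 matches. The forkhead letters occur in 3.42% of the 35116 RefSeq windows of this length, and among the 8 members with a window they occurred in BCL2L11 alone. The BBC3 window held 1 E-box, found in 7.26% of all windows and also in that of BAX, and 1 CCAAT box, found in 34.6%. The BCL2 window and the outer BCL2L1 window held none of the 6 motifs, and the inner BCL2L1 window held 1 GC box, which 45% of all windows have. The STAT letters, present in 7.66% of windows, were found in that of BCL2A1, and the GATA letters, present in 10.3%, in none of the 8. GC content was 70.7% in the BCL2 window, 74.7% in that of BCL2L11 and 48% in that of BBC3. MCL1 and BCL2L2 had no window in the set used, so neither was searched. The windows of BAX, BAK1, PMAIP1 and BCL2A1 were searched but are not printed. A match of letters is a description of the sequence and not a bound site.

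BCL2 had the largest difference of the 10. Its levels in experiment 1 were 17.7 and 19.6 CPM in KO replicates 1 and 2 and 18.5 and 17.8 CPM in NT replicates 1 and 2. In experiment 2 they were 40.7 and 30.7 CPM in KO replicates 3 and 4 and 34.1 and 27.6 CPM in NT replicates 3 and 4. Every library of experiment 2 was above every library of experiment 1. BCL2 averaged 18.4 ± 0.906 CPM in experiment 1 and 33.3 ± 5.62 CPM in experiment 2 (SD, n = 4 each), and the fitted log2 difference was 0.85 (SE 0.11, 95% interval 0.60 to 1.10, edgeR adjusted p = 9.75e-05). The rise was present within each genotype, with a log2 difference of 0.94 in KO (edgeR adjusted p = 0.00147) and 0.77 in NT (edgeR adjusted p = 0.00298).

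Profiles over the 8 libraries were compared with that of BCL2 for 11013 genes with a mean of at least 5 CPM, as the root mean square difference of centred log2 CPM. The 3 closest were PHKA1 and RASL10B, each at 0.078, and YIPF1 at 0.088, where the SD of BCL2 itself over the libraries was 0.48. PHKA1 ran from 25.3 to 30.6 CPM in experiment 1 and from 43.3 to 53.6 CPM in experiment 2. Among the members the closest to BCL2 was BCL2L11, at 0.201 and rank 428, and the farthest was MCL1, at 0.608. The libraries of an experiment share their run and day, so these distances are given as a description.

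BCL2L1, the most abundant survival gene per kb, rose by the smallest factor of the 4. It stood at 315.7 and 327.7 CPM in KO replicates 1 and 2 and at 320.2 and 308.6 CPM in NT replicates 1 and 2, against 381.3 and 338.2 CPM in KO replicates 3 and 4 and 420.2 and 366.4 CPM in NT replicates 3 and 4. The groups did not overlap, but KO replicate 4 lay close to the highest library of experiment 1. It averaged 318.1 ± 8.03 CPM in experiment 1 and 376.5 ± 34.2 CPM in experiment 2 (SD, n = 4 each), with a log2 difference of 0.24 (SE 0.07, edgeR adjusted p = 0.0136). Within NT the log2 difference was 0.32 (edgeR adjusted p = 0.0232), and within KO it was 0.16 (edgeR adjusted p = 0.236). Without NT replicate 2 the log2 difference over both genotypes was 0.23 and its edgeR adjusted p 0.0643, so that the call was lost.

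MCL1 moved the other way. Experiment 1 gave 249.5 and 230.5 CPM in KO replicates 1 and 2 and 252.6 and 243.9 CPM in NT replicates 1 and 2. Experiment 2 gave 203.6 and 183.8 CPM in KO replicates 3 and 4 and 182.5 and 216.3 CPM in NT replicates 3 and 4. All 4 libraries of experiment 2 were below all 4 of experiment 1. The mean went from 244.1 ± 9.78 CPM to 196.5 ± 16.3 CPM (SD, n = 4 each), a log2 difference of −0.31 (SE 0.08, edgeR adjusted p = 0.0048). Both genotypes showed it, at −0.31 in KO (edgeR adjusted p = 0.0449) and −0.32 in NT (edgeR adjusted p = 0.0332).

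Of the remaining survival genes, BCL2L2 did not pass the test, with 34.1 ± 2.43 CPM and 32.3 ± 3.75 CPM (SD, n = 4 each) and an edgeR adjusted p of 0.529. BCL2A1 was at 0.89 to 1.52 CPM in experiment 1 and 1.27 to 2.17 CPM in experiment 2. Its ranges overlapped through NT replicate 3, the lowest of experiment 2. The log2 difference was 0.53 (SE 0.24, edgeR adjusted p = 0.0765). Without NT replicate 3 it was 0.72 with an edgeR adjusted p of 0.0202, and with no filter on low counts 0.54 with an edgeR adjusted p of 0.0349, so this call depends on both choices.

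The effectors BAX and BAK1, which form the pores, did not pass the test. BAX stood between 69.1 and 71.5 CPM in the 4 libraries of experiment 1, and in experiment 2 at 70 and 65.2 CPM in KO replicates 3 and 4 and 71.2 and 54 CPM in NT replicates 3 and 4. BAK1 stood between 45 and 47.9 CPM in experiment 1, and in experiment 2 at 45.7 and 40.7 CPM in KO and 47.9 and 33.9 CPM in NT. NT replicate 4 was the lowest library for both genes. The log2 differences were −0.11 for BAX (edgeR adjusted p = 0.324) and −0.14 for BAK1 (edgeR adjusted p = 0.275). Both differences depended on single libraries. Leaving out each library in turn, they ranged from −0.21 to −0.02 for BAX and from −0.28 to −0.04 for BAK1. The values of −0.21 and −0.28 were those without NT replicate 3, a library at the high end of both genes. The ratio of BAX to BAK1 counts stayed within 1.44 to 1.6 in all 8 libraries.

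Among the BH3-only genes, BCL2L11 had the clearest rise. BIM, its product, can bind all the survival proteins and is restrained in growing blood cells by cytokine and ERK signals. The gene stood at 40.1 and 42 CPM in KO replicates 1 and 2 and at 36.7 and 37 CPM in NT replicates 1 and 2. In experiment 2 it stood at 57.6 and 52.2 CPM in KO replicates 3 and 4 and at 65.7 and 51.6 CPM in NT replicates 3 and 4. The experiments were well apart, and NT replicate 3 was the highest library. It averaged 39 ± 2.57 CPM in experiment 1 and 56.8 ± 6.54 CPM in experiment 2 (SD, n = 4 each), with a log2 difference of 0.55 (SE 0.09, edgeR adjusted p = 0.000439). It was called within KO at 0.42 (edgeR adjusted p = 0.0259) and within NT at 0.67 (edgeR adjusted p = 0.00178).

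BBC3 rose with a wide spread. Its levels were 13.7 and 17 CPM in KO replicates 1 and 2, 11.3 and 12 CPM in NT replicates 1 and 2, 17.1 and 22.7 CPM in KO replicates 3 and 4, and 25 and 18.7 CPM in NT replicates 3 and 4. The experiments separated only just, since KO replicate 2 at 17 CPM nearly met KO replicate 3 at 17.1 CPM. The log2 difference was 0.64 (SE 0.13, edgeR adjusted p = 0.0018), 0.91 within NT (edgeR adjusted p = 0.0029) and 0.37 within KO (edgeR adjusted p = 0.139). PMAIP1, whose product binds MCL1 and marks it for degradation, had 24.7 ± 2.86 CPM in experiment 1 and 28.1 ± 3.72 CPM in experiment 2 (SD, n = 4 each). Its log2 difference of 0.19 (SE 0.10) did not pass, with an edgeR adjusted p of 0.125, but it was 0.25 with an edgeR adjusted p of 0.0399 without NT replicate 4.

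Within NT alone the experiment effect was called for 5 members, the same 5 as over both genotypes, where 46.9% of all genes were called. Within KO alone it was called for 3 members, BCL2, MCL1 and BCL2L11, where 36.9% of all genes were called. The difference between the 2 effects was called for 0 members and 0 genes (0%) by edgeR, with 0 members and 1.66% of genes at an unadjusted p under 0.05, and DESeq2 called 0 as well, so BCL2L1 and BBC3 are not shown to respond differently by genotype. Leaving out each library in turn, the log2 differences over both genotypes kept their direction for these 5 members. They ranged from 0.75 to 0.95 for BCL2, 0.45 to 0.62 for BCL2L11 and 0.53 to 0.74 for BBC3. BCL2L1 ranged from 0.19 to 0.29 and MCL1 from −0.38 to −0.25.

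**Figure D2:**
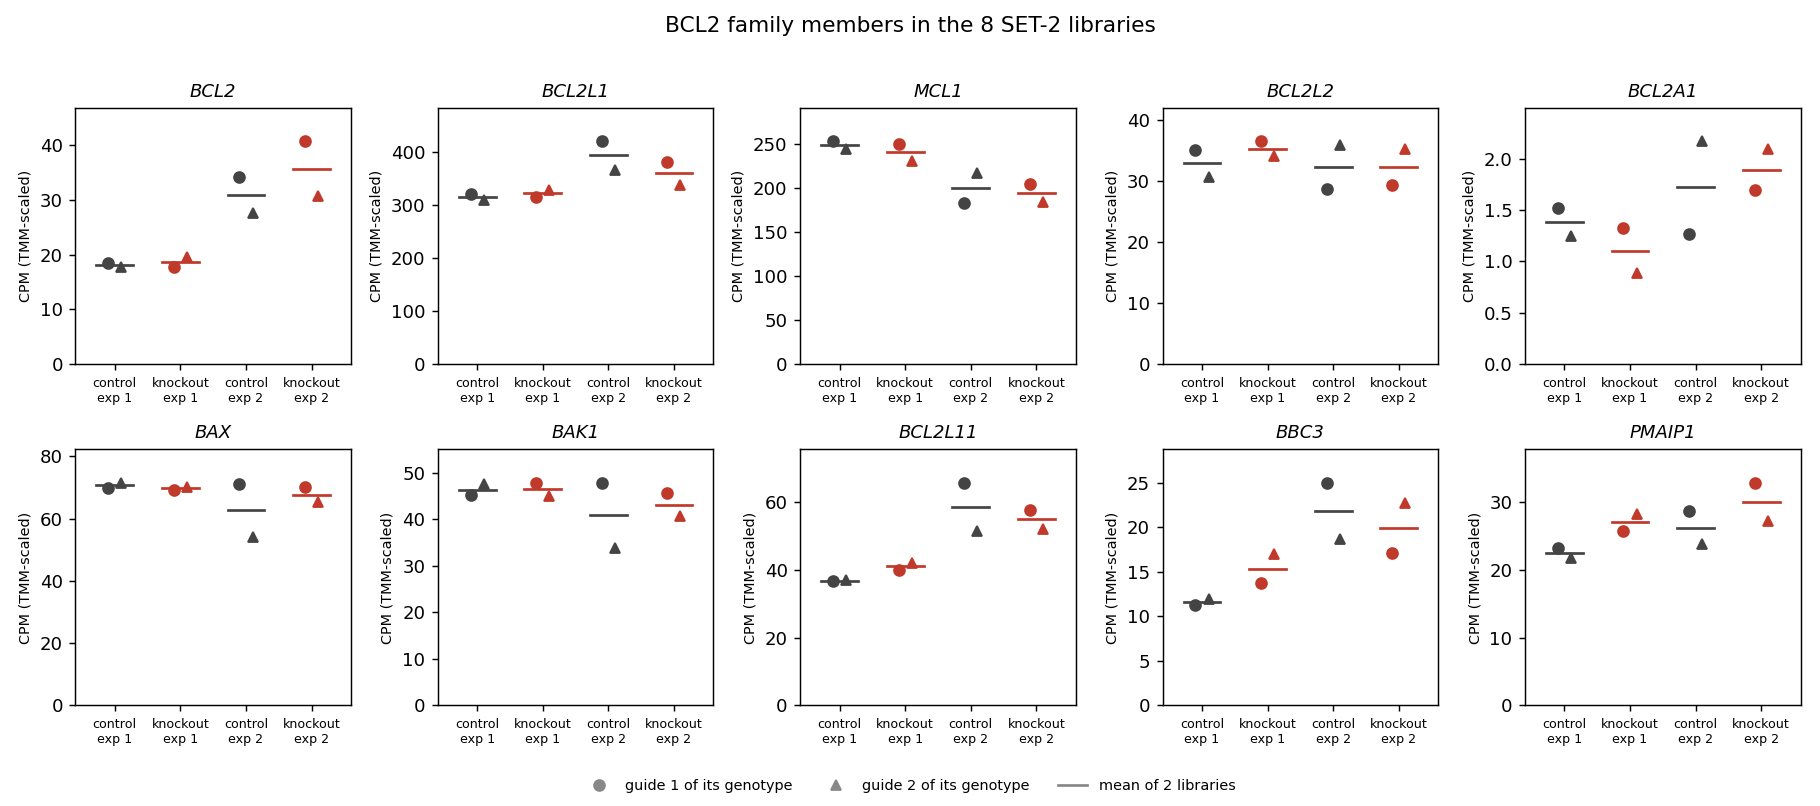
CPM of each member in every library, by genotype (black for NT control, red for KO) and experiment, with circles for guide 1 and triangles for guide 2 of a genotype and lines for means of 2 libraries. BCL2, BCL2L1, BCL2L11 and BBC3 sit higher in experiment 2, MCL1 sits lower, and NT guide 2 of experiment 2 is lowest for BAX at 54 CPM.

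Because BCL2L1 rose while MCL1 fell, their ratio separated the experiments within each library, free of the scaling between libraries. BCL2L1 had 1.27 and 1.42 counts per MCL1 count in KO replicates 1 and 2 and 1.27 and 1.26 in NT replicates 1 and 2. It had 1.87 and 1.84 in KO replicates 3 and 4 and 2.3 and 1.69 in NT replicates 3 and 4. The mean ratio went from 1.3 ± 0.0779 to 1.93 ± 0.262 (SD, n = 4 each), or 1.48 times. BCL2 counts per MCL1 count went from between 0.0708 and 0.0852 to between 0.128 and 0.2, or 2.25 times in the mean. BCL2L11 per MCL1 went from between 0.145 and 0.182 to between 0.238 and 0.36, or 1.82 times. Against BCL2L1 the shifts were smaller: BCL2L11 went from 0.115 to 0.128 up to 0.141 to 0.156 counts per BCL2L1 count, and BCL2 from 0.0559 to 0.0599 up to 0.0753 to 0.107, without overlap. BBC3 per BCL2L1 overlapped, at 0.0354 to 0.0519 and 0.0448 to 0.0672. These ratios restate the same counts as the tests above and were not tested on their own.

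**Figure D3:**
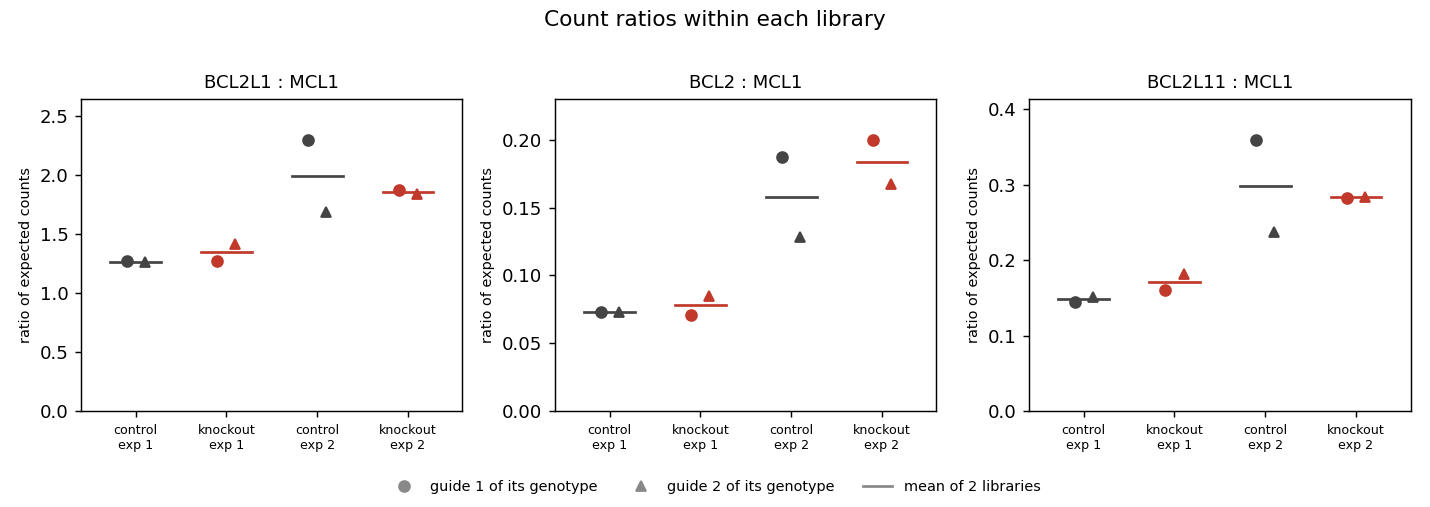
Ratios of expected counts within each library for BCL2L1, BCL2 and BCL2L11 against MCL1, by genotype and experiment, with circles for guide 1, triangles for guide 2 and lines for means of 2 libraries. All 3 ratios are higher in each library of experiment 2 than in any of experiment 1, and the BCL2L1 ratio runs from 1.26 to 1.42 and from 1.69 to 2.3.

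Between KO and NT, no member passed the test. The survival genes BCL2, BCL2L1 and MCL1 stood at 27.2 ± 10.7, 340.7 ± 28.6 and 216.8 ± 29 CPM in KO and at 24.5 ± 7.79, 353.9 ± 50.8 and 223.8 ± 31.6 CPM in NT (SD, n = 4 each). BAX and BAK1 stood at 68.6 ± 2.34 and 44.8 ± 3.04 CPM in KO and at 66.7 ± 8.45 and 43.6 ± 6.62 CPM in NT. BCL2L11, BBC3 and PMAIP1 stood at 48 ± 8.31, 17.6 ± 3.75 and 28.5 ± 3.05 CPM in KO and at 47.7 ± 13.8, 16.8 ± 6.42 and 24.3 ± 2.96 CPM in NT. BCL2L2 was at 33.8 ± 3.08 and 32.5 ± 3.4 CPM and BCL2A1 at 1.5 ± 0.511 and 1.55 ± 0.43 CPM. The ranges of KO and NT libraries overlapped for all 10, where 0.678% of the tested genes did not overlap.

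The log2 fold changes of KO against NT lay between −0.05 and 0.23, with a median of 0.04 against −0.003 over all tested genes. edgeR called 0 members and 0 of 14898 genes (0%), with 0 members and 0.597% of genes at an unadjusted p under 0.05. Once the experiment was a block, edgeR again called 0 members and 0 genes, with 1 member, PMAIP1, and 4.63% of genes at an unadjusted p under 0.05. DESeq2 with the same block called 31 genes (0.208%) and 0 members, and DESeq2 without it 4 genes and 0 members. The block narrowed what the data allow. For the 9 members other than BCL2A1, the 95% intervals of the fold change lay between 0.868 and 1.35 with the block and between 0.675 and 1.82 with genotype alone. BCL2A1, with its few counts, was bounded to between 0.669 and 1.37 with the block.

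PMAIP1 was the member with the largest fitted KO difference. It had 25.7 and 28.2 CPM in KO replicates 1 and 2 against 23.2 and 21.7 CPM in NT replicates 1 and 2, and 32.8 and 27.2 CPM in KO replicates 3 and 4 against 28.6 and 23.8 CPM in NT replicates 3 and 4. In experiment 1 both KO libraries were above both NT libraries, and in experiment 2 NT replicate 3 lay above KO replicate 4. The log2 fold change was 0.23 (SE 0.09) with the block, a fold of 1.17 (95% interval 1.02 to 1.35), with an unadjusted p of 0.03 and an edgeR adjusted p of 1. It is therefore not called a difference.

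**Figure D4:**
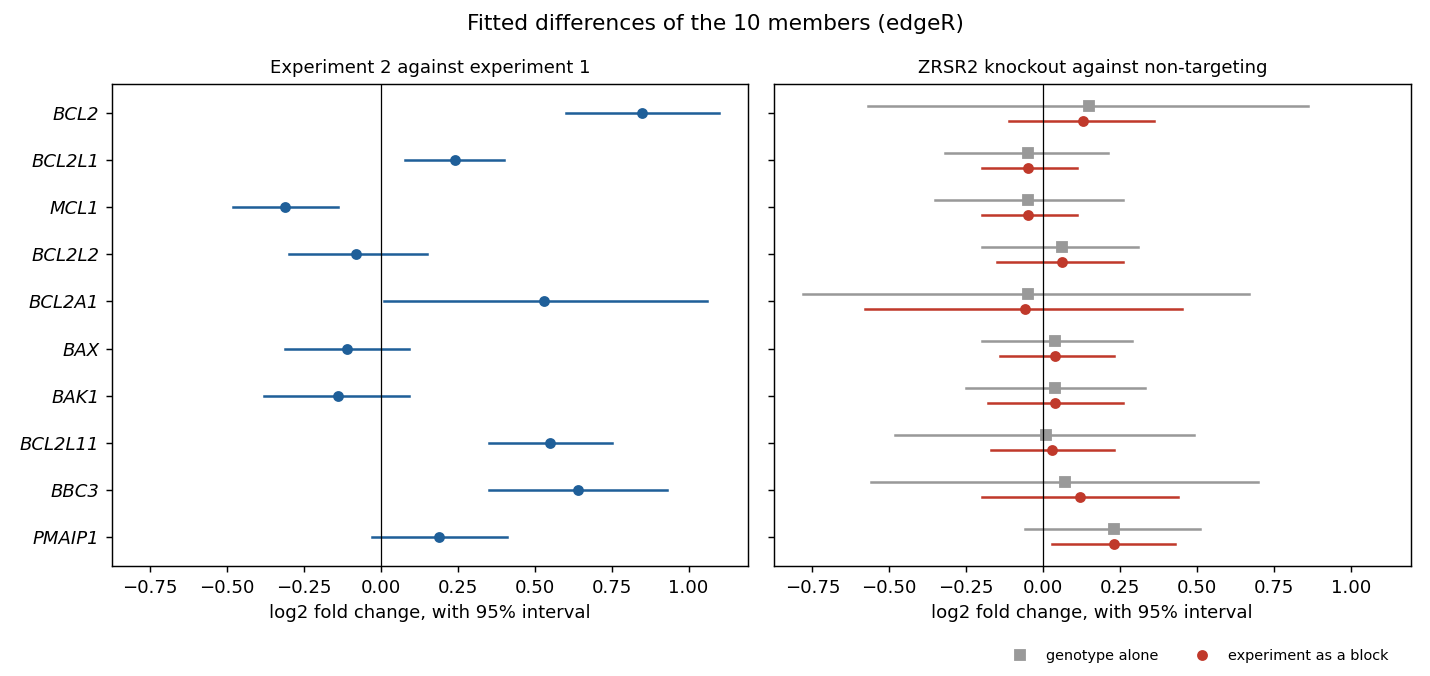
Log2 fold change with its 95% interval for each member, left for experiment 2 against experiment 1 and right for KO against NT with genotype alone (grey squares) and with the experiment as a block (red circles). On the right the intervals include 0 for all members with genotype alone and for all but PMAIP1 with the block; on the left BCL2 is farthest from 0, at 0.85.

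Each experiment was also read on its own against its own controls, with 2 libraries a group. In experiment 1 the KO libraries were above both NT libraries for BBC3, PMAIP1 and BCL2L11, with log2 fold changes of 0.40, 0.26 and 0.16. Such separation of 2 against 2 libraries held for 36.4% of all tested genes, 18.5% with KO higher, and edgeR called 0 genes (0%), with 0 members and 2.05% of genes at an unadjusted p under 0.05. In experiment 2 none of the 10 separated, where 23.5% of genes did, and edgeR again called 0 genes (0%), with 0 members and 4.33% of genes at an unadjusted p under 0.05. In experiment 1 DESeq2 called 5 genes and in experiment 2 it called 13, with 0 members among them. BBC3 had the largest difference between the experiments toward lower values, with a log2 fold change of 0.40 (SE 0.19, unadjusted p = 0.0619 by edgeR) in experiment 1 and −0.14 (SE 0.18, unadjusted p = 0.468 by edgeR) in experiment 2. The difference of these effects was −0.54 (SE 0.26, unadjusted p = 0.0687 and adjusted p = 1 by edgeR), so it was not shown. BCL2A1 differed by 0.50 the other way on its few counts.

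By guide, the members ranged from −0.12 to 0.27 on the log2 scale for ZRSR2 guide 1 against NT and from −0.11 to 0.25 for guide 2 against NT, in comparisons that share the 4 NT libraries. edgeR called 0 members and 0 genes (0%) for each, with 0 members and 0.121% and 0.403% of genes at an unadjusted p under 0.05. Once the experiment was a block it called 10 genes (0.0671%) for guide 2, none of them a member. DESeq2 without the block called 0 genes for guide 1 and 2 for guide 2, and 0 members. The guides of a genotype were also compared with each other. ZRSR2 guide 2 against guide 1 ranged from −0.21 to 0.37 over the members and NT guide 2 against guide 1 from −0.24 to 0.30, with 0 members and 0 genes (0%) called by edgeR in each, and 0 members at an unadjusted p under 0.05 where 0.181% and 0.0873% of genes were. DESeq2 called 0 genes in both.

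The other genes of the pathway were taken from 3 lists and read for the same comparisons. Of 12 further BCL2 family genes 10 were tested, since HRK had 0 to 4 counts and BCL2L10 1 to 16. From experiment 1 to 2, 2 rose and 3 fell of these 10, with a median log2 difference of −0.02; 58.2% of all tested genes were called, 29.6% higher and 28.6% lower, so the count is near the background. BNIP3, a hypoxia-inducible BH3-like gene tied to removal of mitochondria, rose by 1.88 on the log2 scale (SE 0.25, edgeR adjusted p = 9.82e-05). Its levels were 25.2, 16.9, 53.8 and 38.7 CPM in KO replicates 1 and 2 and NT replicates 1 and 2, and 76.4, 101.8, 86.6 and 211.4 CPM in KO replicates 3 and 4 and NT replicates 3 and 4. In experiment 1 both KO libraries were below both NT libraries, and in experiment 2 the groups overlapped, with a KO log2 fold change of −0.93 with the block (SE 0.24, unadjusted p = 0.002 and adjusted p = 0.614 by edgeR), which did not pass. BOK, a BAX-like effector that the survival proteins bind poorly, fell by 1.21 (SE 0.16, edgeR adjusted p = 0.000103). BID, which links death receptors to the mitochondria, fell by 0.27 and BCL2L12 by 0.37, while BAD, BIK and BMF did not pass. Within KO alone BID at −0.25 and BCL2L12 at −0.34 did not pass either (edgeR adjusted p = 0.0982 and 0.0985). BMF was called within NT alone, at 0.60 (edgeR adjusted p = 0.0343), and was at 0.01 within KO (edgeR adjusted p = 0.966). The difference between the NT and KO effects was called for 0 genes by edgeR.

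In the list of mitochondrial apoptosis machinery, 4 of 21 tested genes rose and 8 fell, with a median log2 difference of −0.09. This too is near the background of 58.2% called over all tested genes, with 29.6% higher and 28.6% lower. The rises were BIRC3, an inhibitor of apoptosis, at 0.80, APAF1, the scaffold of the apoptosome, at 0.54, CASP9, the caspase it activates, at 0.47, and DFFA, which holds back the apoptotic nuclease, at 0.35. Within KO alone DFFA was at 0.30 and did not pass (edgeR adjusted p = 0.0931). The largest falls were in DFFB, that nuclease, at −1.07, in CYCS, cytochrome c, at −0.93, in ENDOG, a mitochondrial nuclease, at −0.63, and in CASP6, a downstream caspase, at −0.53. APAF1 and CASP9 thus moved opposite to CYCS, and DFFB opposite to DFFA. The other 9 genes, among them XIAP, CASP8 and DIABLO, did not pass.

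Of 14 regulators of the family, 7 rose and 1 fell, with a median log2 difference of 0.25. The 8 calls of 14 are again near the 58.2% called over all tested genes, where 29.6% were higher and 28.6% lower. FOXO3, a forkhead factor known to act on BCL2L11 and BBC3, rose by 1.01 on the log2 scale (SE 0.08, edgeR adjusted p = 3.64e-06). MAPK3, which encodes ERK1, rose by 0.89, and DDIT3, the stress factor CHOP, by 0.60. STAT5B rose by 0.72 and its close relative STAT5A fell by 0.29 (edgeR adjusted p = 7.57e-06 and 0.00648). Within KO alone the STAT5A difference was −0.25 and did not pass (edgeR adjusted p = 0.0863). These transcripts and those of the members come from the same libraries, and no relation between them was tested. In KO against NT, edgeR called 0 genes of each of the 3 lists, and their median log2 fold changes were 0.002 for the further family genes, 0.02 for the machinery and −0.01 for the regulators.

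**Figure D5:**
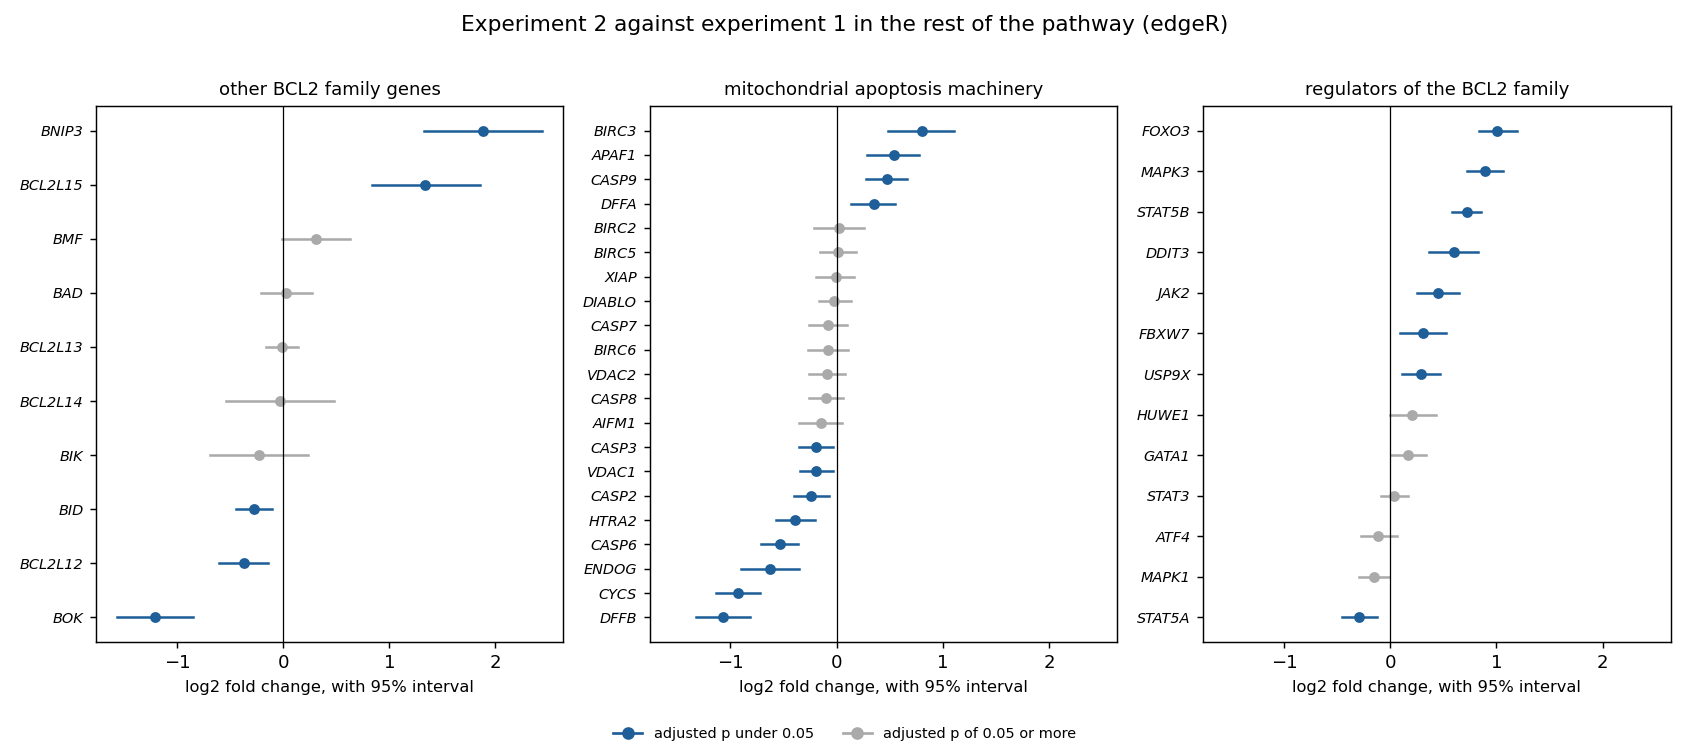
Log2 difference of experiment 2 against experiment 1 with its 95% interval for the tested genes of the 3 pathway lists, 1 regulator left out, blue where the edgeR adjusted p is under 0.05 and grey otherwise. BNIP3 at 1.88 and FOXO3 at 1.01 are the farthest to the right in their panels, and BOK at −1.21 and DFFB at −1.07 the farthest to the left.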

How the data were processed

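Messenger RNA was sequenced in 8 SET-2 libraries, 4 KO and 4 NT. The deposited values are expected counts per gene symbol that the authors made with RSEM 1.2.30 after trimming with cutadapt 1.11, on hg19, per the submitters' processing notes; the aligner, annotation and use of strand are not given in the sources used here. The expected counts were rounded, which changed 0 values, and 0 columns belonged to other samples. A count was worth 0.0143 to 0.0324 CPM.

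filterByExpr on genotype left 14898 genes, with at least 99.966% of the counts of each library. Tests used edgeR 4.0.16 (R 4.3.3) with TMM factors, the quasi-likelihood F test and Benjamini-Hochberg adjustment across the 14898 genes; genes under 0.05 were called. KO was compared with NT by genotype alone, experiments in a fit with 4 groups, guides in a fit with the guides. Standard errors were derived from the F statistic. Alternatives were RLE factors, no filter, at least 10 counts in every library, DESeq2 1.42.0, the experiment as a block and leaving out each library; fits of the experiment within each genotype were added after seeing the data. The code was tested on simulated data. All pairs of libraries differed by more than sampling noise (smallest chi-square per degree of freedom 2.99).

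Experiment numbers were taken to pair the samples. Deviations from genotype means correlated at 0.678 to 0.846 in the 8 KO and NT pairs of the same experiment. In the 8 others they correlated at −0.816 to −0.709. Within a genotype the deviations cancel, so the negative values largely follow from the positive ones. These correlations restate the difference between experiments and are no separate test of the pairing.

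The members and lists were chosen with earlier results of these data known. All 10 members are described. Of each list, the called genes averaging 1 CPM or more are named by size of change, no more than 4 higher and 4 lower; others named are given as not having passed, or by their counts, and were picked after their values were seen. Lengths and overlaps came from GENCODE 29 (GRCh38) by symbol, and promoters from RefSeq, where 8 of 10 members matched. The values of 1 regulator are not reported here, though the list's counts include it. Figures were drawn with matplotlib 3.10.9.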

Additional observations from a re-analysis of the deposited data

Results flagged for a closer look

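BAX in NT replicate 4 stood far from the other NT libraries, at 54 CPM against 69.9 to 71.5 CPM in NT replicates 1, 2 and 3. Its gap to the nearest library, as a share of the range, passed the 95% limit of Dixon's test for 4 samples. Each of the 10 members was examined in 4 groups of 4 libraries, 40 groups in all, and 1 group stood out where about 2 would by chance. BAK1 was lowest in the same library, at 33.9 CPM, without passing that limit.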

How the results depend on the processing

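Of 947 values computed for 61 results, 886 stayed the same. For a fold change this meant keeping its direction and its side of the threshold. For a count of calls it meant staying equal or within 1.5 times. Among the rest, 33 changed direction, 7 lost and 5 gained a call, and 16 counts moved from 0 or by over 1.5 times. Of the losses, 6 were between experiments within KO alone, for BCL2L1, BBC3, BCL2L12, BID, DFFA and STAT5A. In KO against NT, where edgeR called 0 genes, DESeq2 called 4 and DESeq2 with the experiment as replicate block 31. The edgeR replicate block called 0 genes, and 0 to 12 when each library was left out, 12 without NT replicate 3 and 1 without KO replicate 3; it called 10 genes for guide 2 against NT, where DESeq2 called 2, and changed no other call. Within experiment 1 the count went from 0 to 40 with no filter, 5 with DESeq2 and 0 to 2 without each library in turn, and within experiment 2 from 0 to 116, 13 and 0 to 154, the last without NT replicate 3. The difference of the KO effects went to 5 genes with no filter. The cause of these moves was not tested. The difference between experiments was called for 5498 genes within KO and for 7178 to 9193 without each library in turn, and for 3 members within KO and 4 to 8 without each library.

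All changes of direction came from leaving out 1 library, for values near 0. The KO log2 fold changes then ranged, with genotype alone, from −0.11 to 0.35 for BCL2, −0.11 to 0.04 for BCL2L1, −0.13 to 0.03 for MCL1, −0.26 to 0.17 for BCL2A1, −0.03 to 0.08 for BAX, −0.05 to 0.09 for BAK1, −0.10 to 0.20 for BCL2L11, −0.08 to 0.33 for BBC3 and 0 to 0.12 for BCL2L2. With the replicate block they ranged from −0.07 to 0.01 for BCL2L1, −0.09 to 0.02 for MCL1, −0.28 to 0.08 for BCL2A1, −0.03 to 0.11 for BAX, −0.05 to 0.14 for BAK1, −0.01 to 0.13 for BCL2L11 and 0 to 0.14 for BCL2L2. PMAIP1 stayed above 0, at 0.15 to 0.31 with genotype alone and 0.18 to 0.29 with the block. BCL2L2 between experiments ranged from −0.17 to 0, BBC3 within experiment 2 from −0.36 to 0.09, and PMAIP1 in the difference of KO effects from −0.21 to 0.07. The BCL2A1 values rest on 41 to 89 counts per library, which limits their precision. The median log2 difference of all genes between experiments was 0.003 with TMM and 0.004 with RLE factors.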
